A study of Caenorhabditis elegans with 2 samples.

Results

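The genes described here are 10 members of the heterochronic pathway of Caenorhabditis elegans, which time the fates of larval cells, namely lin-14, lin-28, hbl-1, lin-46, lin-41, lin-29, lin-42, daf-12, ain-1 and alg-2. They were taken by name from the 19973 nuclear protein-coding genes of the annotation. Chromatin immunoprecipitation followed by sequencing mapped eGFP-tagged MAB-5, a Hox protein of the posterior body, in whole animals of the second larval stage (L2). The animals were of both sexes, of strain OP27 with the genotype unc-119(ed3) III; wgIs27, where wgIs27 is the insertion targeting mab-5 and the antibody is listed as mab-5. The data are 2 biological replicates of this 1 group, so every set of values below is a description without a test. No second condition and no control sample was analysed here, and in whole animals the number of cells with a signal and the amount of signal in each cell cannot be told apart. Every nuclear peak summit within a member or within 20 kb of its start was taken. This gave 23 different peaks of the 2174 nuclear peaks on the irreproducible discovery rate (IDR) list. The IDR procedure is a filter on how reproducibly peaks rank, but here the list equalled a cut on pooled signal, the authors' score. The lowest score on the list was 29.63 and the highest nuclear one outside it 29.62. Being listed therefore does not show a high rank in both replicates. Whether a peak regulates the gene beside it, and whether MAB-5 itself gave it, was not tested.

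The heterochronic pathway is a succession of regulators whose activity changes from stage to stage. LIN-14, LIN-28 and HBL-1 hold early larval programmes in place, and microRNAs of the lin-4 and let-7 families lower them as the animal passes to later stages. LIN-41 and the transcription factor LIN-29 act late, at the switch from larva to adult, and in the lateral epidermis the pathway times the divisions of the seam cells, in whose posterior descendants MAB-5 is known for its part in the male rays.

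Sequences under selected summits are shown first, each reaching 100 bp to either side of a summit, on the plus strand of ce11. Some were selected for the letters they hold, so the set does not show how common those letters are. The strongest peak nearest to a timing gene, that of lin-28, is not among them. The first pair, from upstream of lin-14, is shown because each holds TGATNNAT, the composite sequence on which a Hox protein and its PBC partner sit side by side, close to its summit. The hbl-1 upstream sequence is the strongest peak nearest to that gene, and the daf-12 and ain-1 sequences are an intron and a promoter peak. The sequence downstream of hbl-1 holds the composite on both strands. Capitals mark TGATNNAT or GAGAGA on either strand, so that a match on the minus strand is read as its reverse complement, and a sequence without capitals holds neither.
lin-14 upstream, 2349 bp before the start, chrX:11463111-11463311: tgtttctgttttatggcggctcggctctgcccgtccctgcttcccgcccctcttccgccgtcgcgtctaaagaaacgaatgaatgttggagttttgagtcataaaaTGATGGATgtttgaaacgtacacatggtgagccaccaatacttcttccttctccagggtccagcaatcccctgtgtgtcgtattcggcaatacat
lin-14 promoter, 1808 bp before the start, chrX:11463652-11463852: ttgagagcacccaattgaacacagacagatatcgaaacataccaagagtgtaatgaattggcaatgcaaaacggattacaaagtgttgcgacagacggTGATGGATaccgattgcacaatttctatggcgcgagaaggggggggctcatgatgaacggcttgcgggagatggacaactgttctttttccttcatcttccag
hbl-1 upstream, 6582 bp before the start, chrX:5815460-5815660: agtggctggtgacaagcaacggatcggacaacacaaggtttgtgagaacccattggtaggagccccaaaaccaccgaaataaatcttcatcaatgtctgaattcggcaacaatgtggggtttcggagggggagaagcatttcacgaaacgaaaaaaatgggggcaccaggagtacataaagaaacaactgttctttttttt
hbl-1 downstream, 15057 bp after the start, chrX:5837099-5837299: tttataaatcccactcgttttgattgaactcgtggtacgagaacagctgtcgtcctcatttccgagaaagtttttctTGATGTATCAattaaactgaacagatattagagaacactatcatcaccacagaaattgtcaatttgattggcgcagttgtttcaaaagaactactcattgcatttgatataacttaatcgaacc
daf-12 intron, 1719 bp after the start, chrX:10637527-10637727: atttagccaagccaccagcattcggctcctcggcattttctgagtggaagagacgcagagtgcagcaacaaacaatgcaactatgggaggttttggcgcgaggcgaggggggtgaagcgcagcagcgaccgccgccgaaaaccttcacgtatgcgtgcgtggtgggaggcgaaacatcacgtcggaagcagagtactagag
ain-1 promoter, 850 bp before the start, chrX:16612501-16612701: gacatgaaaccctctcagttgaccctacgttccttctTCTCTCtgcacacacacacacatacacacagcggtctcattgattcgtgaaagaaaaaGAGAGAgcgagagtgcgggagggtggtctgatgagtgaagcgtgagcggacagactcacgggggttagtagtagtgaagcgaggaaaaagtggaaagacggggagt

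Of the 10 timing genes, 8 had an IDR summit in the gene or within 20 kb of the start, and lin-46 and lin-29 had none. That share of 80% (95% Wilson interval 49.0% to 94.3%) stood beside 51.1% of all protein-coding genes. In the promoter window, which opens 2000 bp ahead of the gene start and closes 500 bp past it, 4 of 10 genes had a summit, lin-14, lin-41, ain-1 and alg-2 (40%, interval 16.8% to 68.7%), against 9.59% of all genes. With the start of any annotated transcript in place of the gene start, lin-28 was added, giving 5 of 10 against 10.3% of all genes. Inside the gene body, 5 of 10 had a summit, lin-14, lin-28, lin-42, daf-12 and alg-2 (interval 23.7% to 76.3%), against 2.66%. The timing genes are long and widely spaced, with a median length of 7186 bp against 2027 bp for all genes, and a median gap to the next protein-coding gene upstream of 3752 bp against 936 bp. Among the 1806 genes of at least the members' median length, 15.1% had a summit in the body. Among the 3678 genes with at least their median upstream gap, 7.01% had a summit in the promoter window and 51.6% one in the gene or within 20 kb. The intervals cover counting error over genes only, and neighbouring genes can share a peak.

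The 23 peaks comprised 7 in promoter windows, 6 in introns, none in an exon of the timing gene, and 10 at distal positions, of which 6 lay upstream and 4 downstream. For 16 of the 23 the nearest protein-coding start was the timing gene itself, and these held all 7 promoter and all 6 intron peaks. The other 7, all distal, lay nearest to another gene, 5 of them within 1 kb of its start. The shares of these positions over all nuclear IDR peaks are not given here, so whether this split is usual for the list cannot be told. The median signal was 50.3 for the 16 peaks nearest a timing gene and 39.7 for the 7 others. The signal is the authors' score for a peak, whose scale is not given, and it was used only to rank and describe peaks within a list. Over all 23 the median was 49.5, against 44.1 for all nuclear IDR peaks, and 14 of 23 lay above that overall median. The peaks lay closer together than those of the genome, since 8 of 23 (34.8%) had another IDR peak within 1 kb, against 7.08% of all nuclear IDR peaks. They were the 4 upstream of lin-14, 2 upstream of hbl-1 and the 2 of ain-1, which overlap. Of the 23 peaks, 15 (65.2%) were on X, which carries 4 of the 10 genes and 19.9% of all nuclear IDR peaks. The median GC content around the summits was 47.3%, against 43.3% for all.

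**Figure D1:**
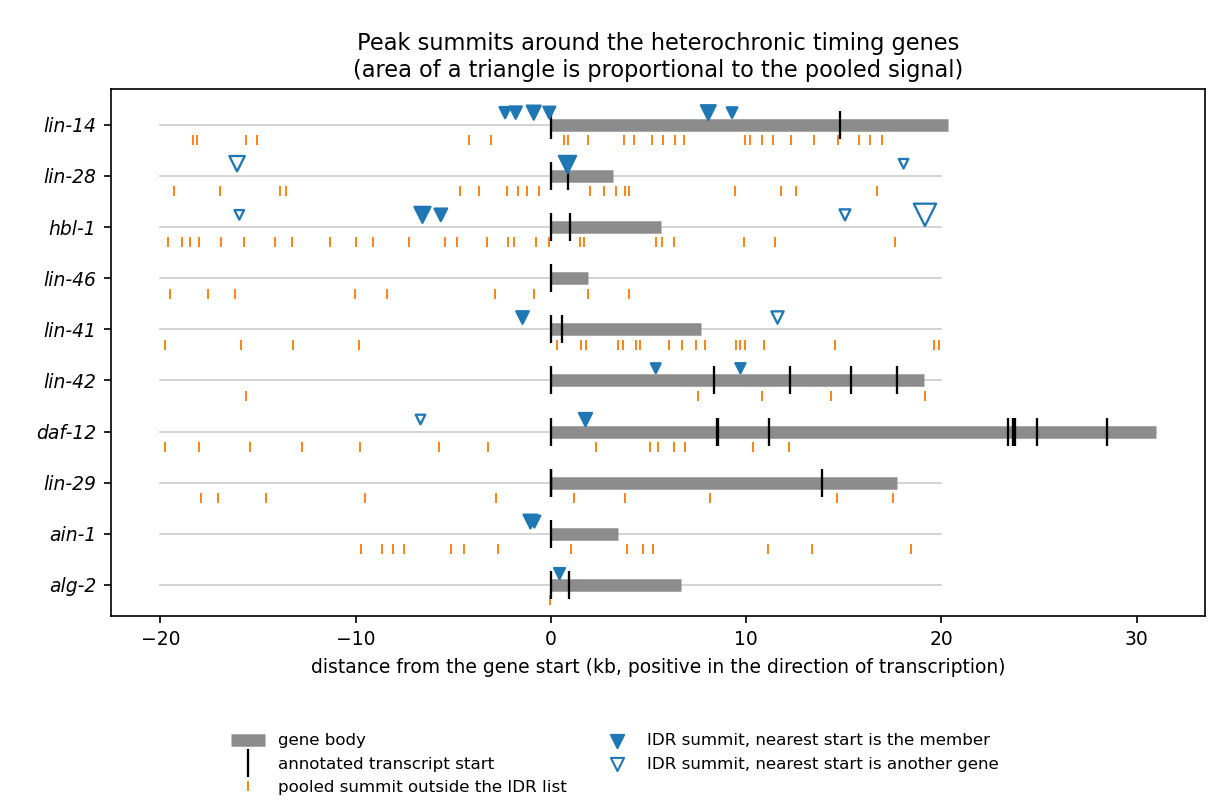
Position of peak summits around each timing gene, in kb from the gene start along the direction of transcription. Triangles are the 23 IDR summits, with an area proportional to the pooled signal, filled where the nearest start is the timing gene (16) and open where it is another gene (7), and short orange ticks are pooled summits outside the IDR list, so that lin-46 and lin-29 carry ticks but no triangle.

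The number of IDR summits per gene ranged from 0 to 6, with a median of 2 and a mean of 2.3, against a median of 1 and a mean of 0.851 over all protein-coding genes. lin-14 had 6, a number reached by 52 genes in all (0.26%), and hbl-1 had 5, reached by 0.691%. lin-28 followed with 3, reached by 8.13% of genes. lin-41, lin-42, daf-12 and ain-1 had 2 each, reached by 22.0%, and alg-2 had 1, reached by 51.1%. Per 10 kb of the windows examined there were 0.559 IDR summits around the timing genes, against 0.217 over the nuclear genome.

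**Figure D2:**
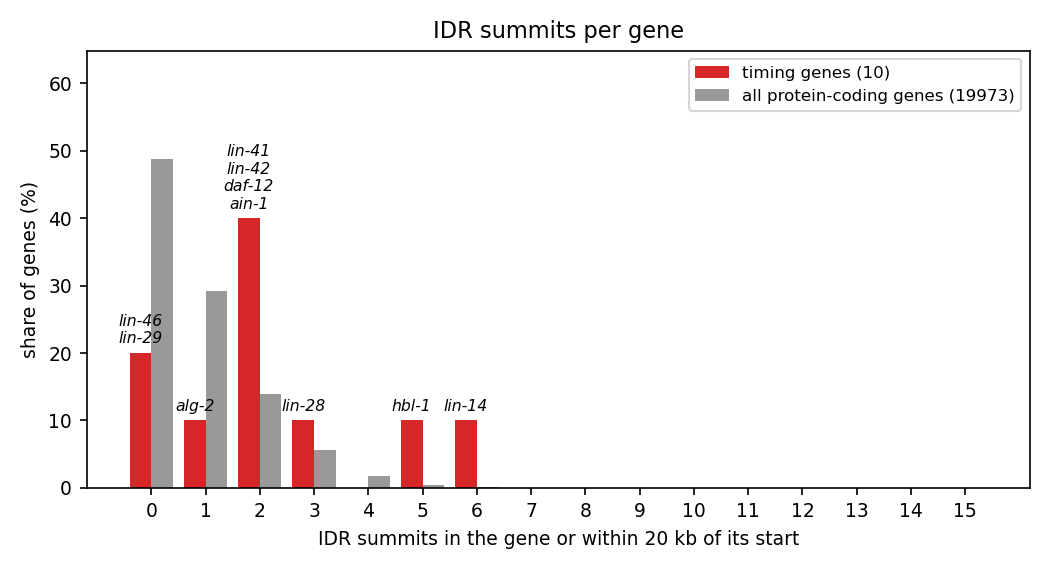
Share of genes in percent by the number of IDR summits in the gene or within 20 kb of its start, for the 10 timing genes (red, named above the bars) and all 19973 protein-coding genes (grey). lin-14 with 6 and hbl-1 with 5 stand in the thin right tail of the grey bars, which reaches 15 summits at heights too low to see.

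lin-14 (WBGene00003003, chrX:11465560-11485871, plus strand) encodes the nuclear protein of the earliest larval fates and is a classic target of lin-4. Its 6 summits all lay nearer to its own start than to any other, 4 within 2349 bp upstream and 2 in an intron. The row upstream, in order towards the gene, stood at 2349, 1808, 883 and 84 bp before the start. The pooled signals at these positions were 41.0, 49.5, 64.1 and 45.9 in that order. The last 3 fall in the promoter window, and only 7 protein-coding genes (0.035%) had 3 or more summits there. The peak at 883 bp (chrX:11464505-11464848) was the strongest of the row in replicate 1, with a signal of 34.5 and rank 298, and had a signal of 33.7 and rank 720 in replicate 2. It also lies within T25C12.10, an annotated non-coding RNA. The farthest, at 2349 bp, was ranked 2618 in replicate 1 and 625 in replicate 2, so its order within the row differed between the replicates.

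The lin-14 peak of highest pooled signal, 71.5, was not at the start but 8058 bp inside the gene (chrX:11473446-11473789), 6743 bp ahead of the start of the shorter transcript T25C12.1b.1. Its signal was 28.1 in replicate 1 and 39.6 in replicate 2, with ranks of 492 and 506 of the 30000 peaks in each list. It was ahead of the promoter peak at 883 bp in the pooled list and in replicate 2, and behind it in replicate 1. The second intron peak, 9274 bp from the start, had a pooled signal of 36.9 and ranked 894 in replicate 1 and 2394 in replicate 2. The best summit outside the IDR list lay inside lin-14 at 1886 bp, with a signal of 25.5 and ranks of 3507 and 2675. lin-14 is 20312 bp long, longer than 99.1% of protein-coding genes, and has 11228 bp free of other protein-coding genes upstream.

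hbl-1 (WBGene00001824, chrX:5822142-5827755, plus strand) encodes a zinc finger protein related to Hunchback that holds second-stage programmes and is lowered by the let-7 family. It had no IDR summit in its promoter window and none in its body. The nearest pair lay 6582 and 5641 bp upstream, inside a gap between protein-coding genes of 16219 bp that is wider than that of 98.8% of genes. The peak at 6582 bp (chrX:5815484-5815637) was narrow, 154 bp, against a median of 344 bp. Its signal was 29.7 in replicate 1, 55.4 in replicate 2 and 84.0 pooled, with ranks of 429 and 239. The peak at 5641 bp had a pooled signal of 51.7 but ranked 2689 in replicate 1 and 417 in replicate 2, and it overlaps the annotated non-coding RNAs F13D11.18 and F13D11.19. The other 3 peaks lay nearest to other genes. One, 15963 bp upstream, was 257 bp from the start of F13D11.3, and one, 15057 bp downstream, was 2394 bp from that of F13D11.4. The strongest of the whole set, 19154 bp downstream (chrX:5841210-5841418), was 296 bp ahead of puf-9. Its signal was 53.4 in replicate 1, 111 in replicate 2 and 165 pooled, with ranks of 100 and 54.

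**Figure D3:**
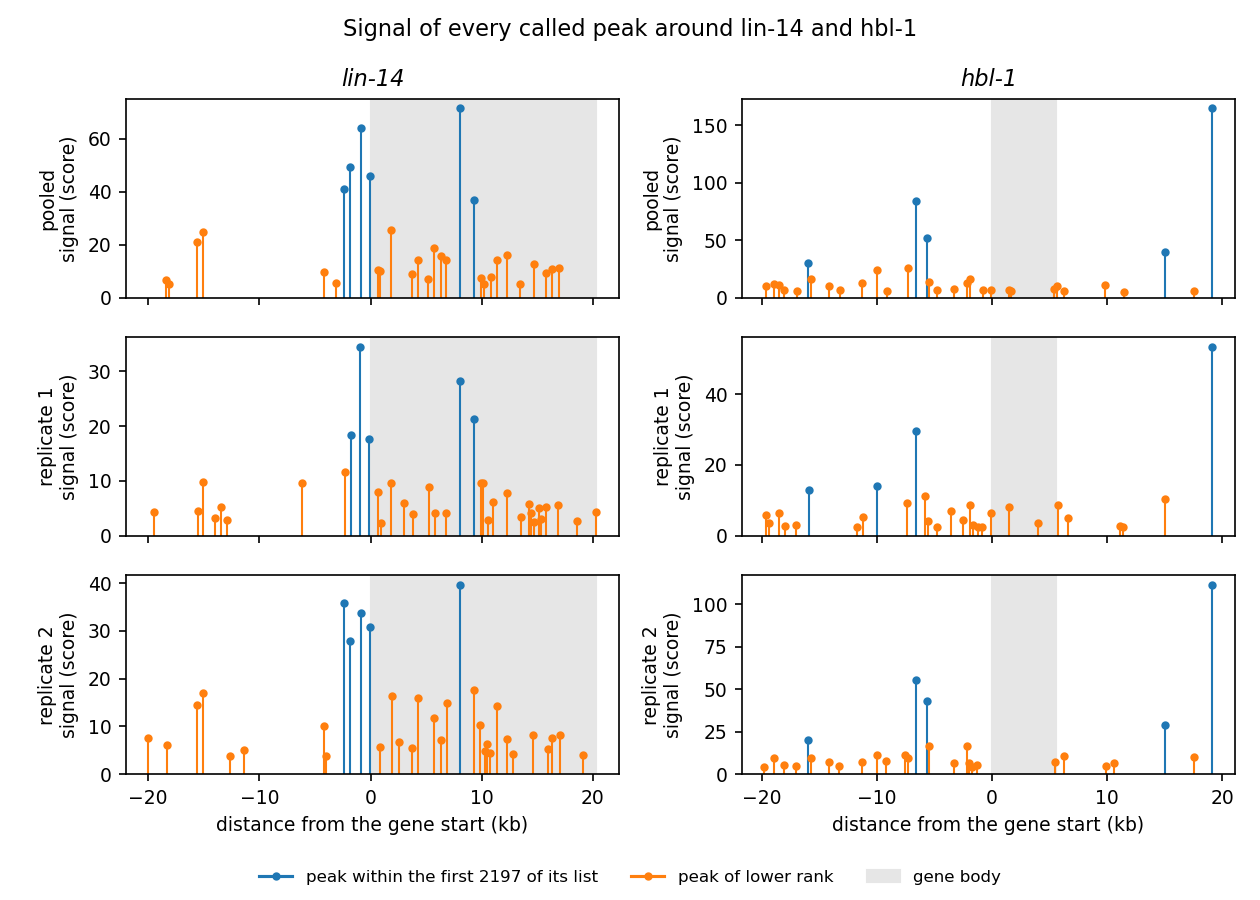
Signal, as the authors' score, of every called peak around lin-14 and hbl-1 in the pooled list and in each replicate, by distance from the gene start in kb. Blue stems are peaks within the first 2197 of their own list, orange stems lower ones, and grey is the gene body. The blue stems stand just upstream of and inside lin-14, and away from the start of hbl-1 on both sides. The 5641-bp upstream peak of hbl-1 is blue in replicate 2 (rank 417) and orange in replicate 1 (rank 2689).

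lin-28 (WBGene00003014, chrI:8407630-8410804, minus strand) encodes the RNA-binding protein that blocks maturation of let-7 microRNA. Its own peak (chrI:8409874-8409997) was the strongest of any nearest to a timing gene, with a signal of 39.1 in replicate 1, 59.3 in replicate 2 and 97.2 pooled. Its ranks of 209 and 208 differed by 1 place, and its width was 124 bp. The summit lay in an intron 842 bp after the gene start, outside the promoter window as set, and 42 bp ahead of the start of the shorter transcript F02E9.2b.1. The other 2 peaks counted for lin-28 were 18057 bp after and 16076 bp before the start, 11 bp from the start of T19A6.1 and 788 bp from that of F02E9.5. The first of these, with a signal of 29.6, was the last but 1 of the 2197 IDR peaks. The values just inside and outside the list were 29.63 and 29.62, and the best summit around lin-28 outside it, at 3993 bp, had 28.96 and a pooled rank of 2265.

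lin-46 (WBGene00003031, chrV:12968855-12970730, plus strand) encodes a gephyrin-like protein that acts downstream of lin-28 and opposes HBL-1. No IDR summit fell in it or within 20 kb. Its best pooled summit stood 856 bp upstream with a signal of 20.5, rank 3802, and ranks of 4095 in replicate 1 and 5476 in replicate 2. That summit is nearer to the start of the neighbouring gene R186.8.

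lin-41 (WBGene00003026, chrI:9334800-9342496, minus strand) encodes a TRIM-NHL RNA-binding protein, itself a let-7 target, that lowers lin-29 translation in larvae. Its promoter peak, 1482 bp upstream (chrI:9343806-9344149), had a signal of 23.5 in replicate 1, 31.7 in replicate 2 and 51.1 pooled, with ranks of 722 and 807. Both replicates thus placed it well within the length of the IDR list. A second summit 11575 bp after the start, beyond the end of lin-41, had a pooled signal of 49.5 and lay inside the neighbouring gene cbl-1. lin-29 (WBGene00003015, chrII:11917642-11935343, minus strand), the zinc finger gene of the larval-to-adult switch, had no IDR summit, although it is 17702 bp long with 13415 bp free of other protein-coding genes upstream. Its best pooled summit was 9507 bp upstream with a signal of 22.1, rank 3381, and ranks of 2967 in replicate 1 and 3163 in replicate 2, nearest to W03C9.8. The best within lin-29, 3771 bp after the start, had a signal of 12.1 and no match in replicate 1.

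lin-42 (WBGene00018572, chrII:1233236-1252359, minus strand) encodes the relative of the circadian protein Period and takes part in the timing of moults. It had 2 intron peaks, 5367 and 9704 bp after the start, with pooled signals of 31.6 and 32.8. Replicate 1 ranked them 2514 and 2668, outside the length of the IDR list, and replicate 2 ranked them 1579 and 2012. The peak at 9704 bp lay 1380 bp after the start shared by transcripts F47F6.1b.1 and F47F6.1c.1, and that at 5367 bp overlapped the non-coding RNA F47F6.13. daf-12 (WBGene00000908, chrX:10635908-10666875, plus strand) encodes a steroid hormone receptor that links larval timing to growth conditions and controls let-7 family microRNA genes. Its intron peak, 1719 bp after the start (chrX:10637455-10637798), had a signal of 26.8 in replicate 1, 40.4 in replicate 2 and 55.6 pooled, with ranks of 539 and 482. The other, 6721 bp upstream and 380 bp from the start of M79.2, had a pooled signal of 30.2 and ranked 7722 in replicate 1 and 1215 in replicate 2. That was the largest difference in places among the 23 peaks. Annotated daf-12 transcripts start up to 28498 bp into the gene, and no IDR summit lay within it beyond the one at 1719 bp.

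ain-1 (WBGene00015547, chrX:16613451-16616871, plus strand) encodes a scaffold protein of the microRNA-induced silencing complex, related to GW182. It had 2 promoter summits, 1051 and 850 bp upstream, with pooled signals of 62.1 and 46.2. Their called intervals overlap, and the strongest overlapping call was the same for both in each replicate, of signal 29.5 and rank 435 in replicate 1 and signal 32.4 and rank 764 in replicate 2. Each replicate had a weaker second call in the promoter, 574 bp upstream with rank 3140 in replicate 1 and 752 bp upstream with rank 12986 in replicate 2. alg-2 (WBGene00000106, chrII:873212-879885, plus strand) encodes an Argonaute protein that carries microRNAs. Its summit, 419 bp after the start and within an intron, had a signal of 9.03 in replicate 1, 23.8 in replicate 2 and 38.9 pooled. It ranked 3893 in replicate 1 and 1389 in replicate 2, and 1 other pooled summit fell within 20 kb of alg-2.

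In each replicate list all 23 peaks had an overlapping peak, by at least 1 bp. Of all nuclear IDR peaks 99.2% had one in replicate 1 and 99.8% in replicate 2, so this does not set the 23 apart. Under a stricter rule, an overlap of 50% of both peaks, 20 of 23 (87.0%) matched in replicate 1, against 87.0% of all. In replicate 2 the count was 21 of 23 (91.3%), against 90.2%. The lin-28 intron peak and the hbl-1 peak 6582 bp upstream failed the stricter rule in both replicates. Of the 23, 14 (60.9%) ranked within the first 2197 of both replicates, against 63.8% of all nuclear IDR peaks. The replicates differed, in that 15 of 23 (65.2%) ranked so in replicate 1, against 77.2% of all, and 21 of 23 (91.3%) in replicate 2, against 84.1%. Replicate 2 gave the better rank to 16 of 23 (69.6%), against 53.4% of all. Ordered by the best rank of a peak nearest to the gene, lin-28 came first in both replicates, at 209 and 208. lin-14 (298), hbl-1 (429), ain-1 (435), daf-12 (539) and lin-41 (722) followed in replicate 1. In replicate 2 the order was hbl-1 (239), daf-12 (482), lin-14 (506), ain-1 (764) and lin-41 (807). In both, lin-41 came after these 4 genes, hbl-1 ahead of ain-1 and daf-12, and lin-14 ahead of ain-1. The order of lin-14 against hbl-1 and daf-12, and of ain-1 against daf-12, differed between the replicates. lin-42 and alg-2 were the last of the 8 in both, at 2514 and 3893 in replicate 1 and at 1579 and 1389 in replicate 2.

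**Figure D4:**
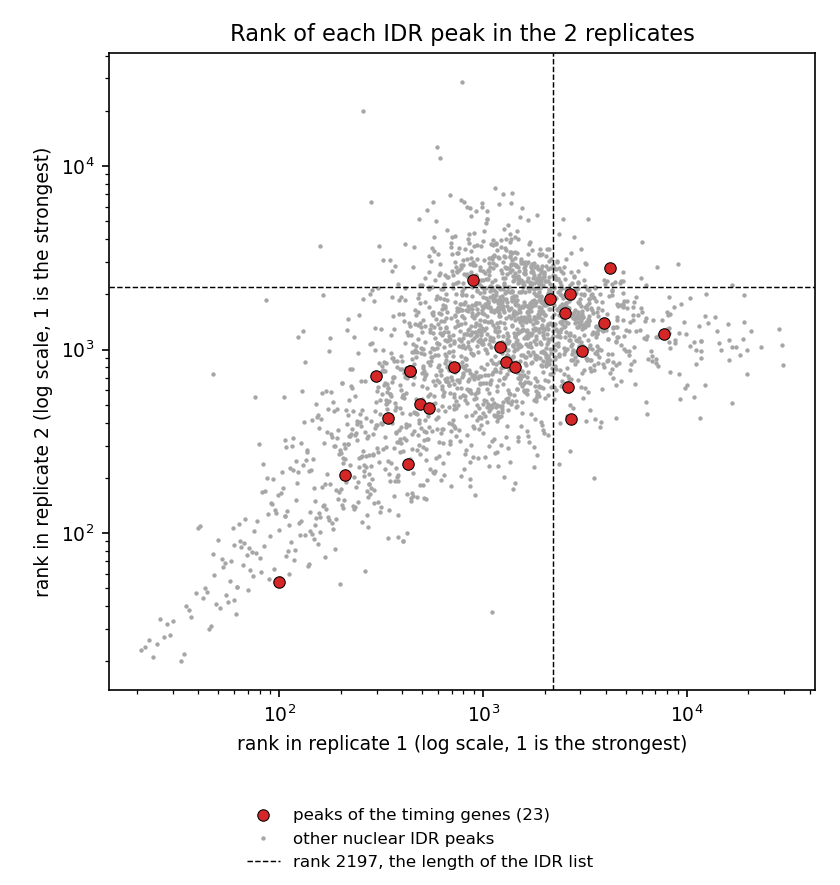
Rank of each IDR peak in replicate 2 against its rank in replicate 1, both on log scales with 1 the strongest, for the 23 peaks of the timing genes (red) and the other nuclear IDR peaks with a match in both lists (grey). Dashed lines mark rank 2197. Of the red points 14 lie within both lines, and the pair of ain-1 peaks falls on 1 point.

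Below the IDR list the timing genes had weaker calls in widely differing numbers. Of the 169 pooled summits around them 146 were outside the IDR list. There were 4.11 pooled summits per 10 kb, against 2.99 over the nuclear genome. Of the 169, 32 were around hbl-1, 31 around lin-14, 24 around lin-41 and 22 around lin-28. daf-12 and ain-1 had 16 each, lin-29 10, lin-46 9, lin-42 7 and alg-2 2. Of the 146, 8 ranked within the first 5000 of the pooled list and both replicates, 2 each around lin-14, lin-28 and hbl-1 and 1 each around lin-42 and lin-29. The share over all nuclear pooled peaks outside the IDR list is not given here, so whether 8 is many or few cannot be told.

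The composite TGATNNAT was within 100 bp of the summit in 5 of 23 peaks (21.7%, interval 9.66% to 41.9%), a share near the 21.8% of all nuclear IDR peaks. Of the 5, 2 were nearest to a timing gene, both upstream of lin-14. There the same letters, TGATGGAT, stood with their centre about 10 bp from the summit of the peak at 2349 bp and 2 bp from that of the peak at 1808 bp. The peak 15057 bp downstream of hbl-1 held TGATGTAT on the plus strand, overlapped by TGATACAT on the minus strand. That 6721 bp upstream of daf-12 held TGATTGAT, and the last was the peak inside cbl-1, counted for lin-41. The repeat GAGAGA was in 7 of 23 (30.4%), against 42.5%. The homeodomain core TAATTA was in 0 of 23, against 5.01%, and GCGCAGGG, known from X-chromosomal loading sites of the dosage compensation complex, was in 0 of 23, against 0.92%. For 0 of 23 the Wilson interval reaches 14.3%. Both strands were searched, overlapping matches included, and matches are descriptions of letters, not sites.

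Among 26 other genes of the pathway, a list written with earlier results of these data known, 8 had a summit in the promoter window. They were 7 of 21 protein-coding genes (33.3%, against the 9.59% of all protein-coding genes given above) and 1 of 5 microRNA genes. The strongest was ahead of puf-9, which encodes a Pumilio-family RNA-binding protein, and is the peak of signal 165 counted above for hbl-1. That ahead of nhl-2, a TRIM-NHL cofactor of the silencing complex, lay 846 bp upstream with a signal of 86.0 in replicate 1, 78.6 in replicate 2 and 158 pooled. It ranked 40 and 106 but is nearer to the start of tag-340. din-1, which encodes a corepressor of DAF-12, had 2 promoter summits, at 696 and 1636 bp upstream with pooled signals of 81.5 and 49.5. lin-66 had one 279 bp upstream (signal 49.6), ranked 380 in replicate 1 and 2264 in replicate 2. cgh-1, which encodes an RNA helicase of P granules and P bodies, had 2, at 751 and 1830 bp (38.6 and 37.6), the second of them nearest to the start of sap-140, at 76 bp. myrf-1, which encodes a membrane-bound transcription factor, had one at 360 bp (39.2), and pan-1, which encodes a leucine-rich repeat protein, one at 416 bp (33.1). Inside the gene body, 2 of the 21 had summits (9.52%, against 2.66% of all protein-coding genes), sea-2 with 3 and kin-20 with 2, all in introns. Both are longer than the timing genes' median of 7186 bp, and 15.1% of genes of at least that length had a summit in the body.

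The microRNA genes of the pathway are shown with their mature sequences, read from RefSeq coordinates on ce11, because 4 of the 5 share 1 seed. Capitals mark the seed, bases 2 to 8, and the let-7 family has GAGGUAG.
let-7: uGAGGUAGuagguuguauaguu
mir-48: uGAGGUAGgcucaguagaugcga
mir-84: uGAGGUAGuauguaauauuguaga
mir-241: uGAGGUAGgugcgagaaauga
lin-4: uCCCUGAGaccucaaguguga
let-7 alone of these had a summit of the IDR list in its promoter window, against 9.96% of the 261 annotated microRNA genes. It lay 1822 bp ahead of the annotated start of the let-7 gene (chrX:14746971-14747314), with a signal of 17.3 in replicate 1, 37.4 in replicate 2 and 54.5 pooled, and ranks of 1342 and 580. Its nearest protein-coding start is that of C05G5.2. The annotated spans differ, since let-7 covers chrX:14743590-14745321 around a mature sequence at chrX:14744234-14744255. The others are annotated as short spans close to the mature sequence, such as chrII:5902254-5902347 for lin-4. Measured from the mature sequence, the let-7 summit would lie more than 2000 bp away, so standing alone here depends on the annotated start. mir-48 and mir-241, which are neighbours, shared 4 IDR summits within 20 kb. The only upstream one lay 5025 bp ahead of mir-48 and 3251 bp ahead of mir-241, and its nearest protein-coding start was that of unc-39, at 3540 bp. The summits downstream lay nearest to other genes, 351 bp from the start of cept-2, 553 bp from that of vha-13 and 119 bp from that of cyn-1. mir-84 and lin-4 had no IDR summit within 20 kb. The share of all microRNA genes with a summit within 20 kb is not given here.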

How the data were processed

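The authors deposited peak lists on ce11 (WBcel235). Per the record deposited beside each sample, each replicate and the pooled alignments have a relaxed list of 30000 peaks made against a control alignment, and an IDR list of 2197 peaks was derived from them. All 2197 were found unchanged in the pooled list. The deposited signal of a peak is a score. The sources used here do not give its scale, the aligner, the peak caller or the IDR threshold. The lists hold no read counts, so depth is unknown. The replicates' lists shared 80 peaks with the same position and 0 with the same position and signal, and were treated as separate.

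From these files, summits were placed against Ensembl 115 genes with Python 3.11.15, numpy 2.4.6, pandas 2.3.3 and scipy 1.17.1, checked on simulated peaks, and drawn with matplotlib 3.10.9. The 23 mitochondrial IDR peaks were left out. A gene start is the start of its longest annotated span, and a position is upstream when it precedes the start in the direction of transcription. A summit in both the promoter window and an intron counts as promoter among positions and also as gene body. Ranks order all 30000 peaks of a list by signal, and a peak took the rank of the strongest peak overlapping it by at least 1 bp. Sequence came from the NCBI copy of the same assembly. Named are all 10 genes, other pathway genes with a summit in the promoter window, and genes nearest to a named peak. sea-2, kin-20, mir-48, mir-241, mir-84, lin-4 and non-coding RNAs under a summit were added after their values were seen. The genes and lists were chosen with earlier results of these data known. The alternatives were the strongest 2197 peaks of 1 replicate, the strongest 1098 IDR peaks, other windows, transcript starts, motif distances and the 50% overlap. No other group was analysed, so no test was made. Sequences are printed for selected peaks only, and that of the lin-14 intron peak at 8058 bp is not reported here.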

Additional observations from a re-analysis of the deposited data

How the results depend on the processing

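Of 32 alternatives, 25 kept their count within 1.5 times the reported one and 7 did not. With 1 replicate's strongest 2197 peaks alone, without replicate 1 or without replicate 2, the peaks assigned to the timing genes numbered 15 to 20 (reported 23), the genes with a peak in the body 3 to 5 (5), and the peaks with the composite 2 to 5 (5). Promoter peaks were found in 3 to 4 timing genes (4), a peak in the gene or within 20 kb in 6 to 8 (8), and promoter peaks in 7 other pathway genes either way (8). The lower ends of the member counts came without replicate 2, where lin-42 and alg-2 had no peak left. With the strongest 1098 IDR peaks, 14 peaks and 3 genes with a peak in the body remained, 2 peaks had the composite, and 5 other pathway genes had a promoter peak. The cause was not tested. No paired analysis was possible because the 2 samples form 1 group. The signal of an IDR peak is 1 pooled value without replicate error.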
